A study of Mus musculus with 10 samples.

Results

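The 6 arrays of mouse intestinal stem cells, sorted by their high GFP from the Lgr5 gene (Lgr5-high), are described here on their own, out of 10 arrays in the series. They were chosen by their titles, which call them Lgr5_GFPhigh and number them 01, 02, 03, 44, 45 and 46, and these are replicates 1 to 6 below. All 6 came from mice of strain C57BL/6J, aged 3 to 6 months, that carried Lgr5-EGFP-IRES-creERT2, an allele that puts EGFP and a tamoxifen-dependent Cre under the control of Lgr5. Single cells were sorted by flow cytometry. Total RNA from the miRNeasy Micro Kit was amplified with the Ovation Pico WTA System V2, labelled with biotin and hybridised to the Affymetrix MoGene-2_0-st array. The gates of the sort, the section of intestine and the number of mice behind an array were not stated in the labels. The other 4 arrays held crypt cells of the Flattop group, with titles 04, 08, 38 and 42. They came from mice labelled FltpT2AiCre crossed with Gt(ROSA)26mTmG on a mixed C57BL/6J, CD1, 129/SvJ background of the same age. These 4 arrays enter only the choice of probe sets and 1 test near the end.

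Lgr5 is a receptor for R-spondins, secreted proteins that strengthen Wnt signalling, and it marks the crypt base columnar cells, the dividing stem cells of the intestinal epithelium. These cells sit between Paneth cells, which make antimicrobial proteins and supply niche signals, and their daughters become absorptive enterocytes or secretory goblet, Paneth, enteroendocrine and tuft cells. R-spondins act through Lgr receptors by removing the ubiquitin ligases Rnf43 and Znrf3, which otherwise take Wnt receptors off the cell surface. The knock-in allele is known to be active in only a part of the crypts, and its GFP fades in the daughters of stem cells, so a gate on high GFP is the usual way to take the stem cells.

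Each value is a log2 intensity, so a difference of 1 is a doubling of the signal. The values of the 6 arrays ran from 2.01 to 14.12, and the array medians from 4.637 to 4.766. Each of 22180 genes is represented by 1 probe set, and its percentile is the place of its mean over the 6 arrays among the means of all these genes. Probe sets differ in how strongly they bind, so percentiles order signals and not amounts of transcript. Detection calls were not used here, and the median gene, at 4.97, serves only as a reference point. Pearson correlations between the arrays across genes ran from 0.905 to 0.957. Replicate 2 stood apart most, with a mean correlation of 0.912 with the other 5 arrays, against 0.926 to 0.941 for the others. Xist, the RNA expressed from the inactive X chromosome of female cells, was at 11.77 in replicate 1 and 11.996 in replicate 6 and between 4.78 and 5.18 in the other 4, so each title set held 1 array with high Xist.

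The markers of the sorted cells had high signals on the arrays. Lgr5 (Entrez gene 14160) read 9.65, 9.90, 9.19, 9.48, 8.99 and 9.61 in replicates 1 to 6. Its mean was 9.47 ± 0.33 (SD, n = 6), rank 543 of 22180 genes and percentile 97.6. This SD was above the median SD of all genes, 0.29, and below that of genes above the median gene, 0.41. Replicate 5 was lowest and replicate 2 highest, and the title sets overlapped. A second Lgr5 probe set, whose mean was 9.24 ± 0.41 (SD, n = 6), also read lowest in replicate 5, at 8.52.

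Olfm4 (Entrez gene 380924), a secreted glycoprotein that marks the same stem cells, read 12.75, 12.53, 12.73, 12.63, 12.77 and 12.58. Its mean of 12.67 ± 0.10 (SD, n = 6) was rank 24, and replicates of both title sets were mixed over its narrow range. Small SDs were not particular to stem cell markers. The named genes of highest mean, given below, had SDs from 0.04 (Rpl41) to 0.23 (ND3). Slc12a2 (Entrez gene 20496), the basolateral sodium, potassium and chloride cotransporter, read 11.98, 11.82, 11.75, 12.01, 12.01 and 11.63. It was rank 66, with a mean of 11.86 ± 0.16 (SD, n = 6). Smoc2 (Entrez gene 64074), a matricellular calcium-binding protein, read 9.07, 8.86, 8.64, 9.02, 8.70 and 8.21 and was rank 922. Its SD of 0.31 (n = 6), like that of Lgr5, lay between the medians of 0.29 for all genes and 0.41 for genes above the median gene. Replicate 6 had the lowest Smoc2 and the lowest Slc12a2 of the 6 arrays.

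Of 35 genes listed as Lgr5 stem cell markers, 32 were measured. Their median level was 8.44, at percentile 94.5, and 31 of them lay above the median gene, with 14 in the top 5% of genes and 4 in the top 1%. The 4 were Clca3b (12.84 ± 0.08, SD, n = 6, rank 14), Olfm4, Slc12a2 and the surface glycoprotein Cd24a (12.46 ± 0.24, SD, n = 6, rank 31). The spread of list members was not small as a whole. Their median SD was 0.46, against 0.41 for all genes above the median level and 0.29 for all genes.

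The transcription factor Sox9 read 9.73, 9.98, 9.71, 8.77, 9.73 and 8.503, so replicates 4 and 6 lay lowest. Rgmb, a BMP coreceptor, had a mean of 9.98 ± 0.33, the surface protein Prom1 one of 9.04 ± 0.28 and the epidermal growth factor receptor regulator Lrig1 one of 8.39 ± 0.69 (SD, n = 6 each). Msi1, an RNA-binding protein, read between 6.23 and 7.47 in 5 arrays and 8.74 in replicate 6. Nrn1 was at 7.54 in replicate 1 and 7.27 in replicate 5, and between 5.003 and 5.47 in the other 4. Ascl2, the stem cell transcription factor that is itself a Wnt target, was near the middle of all genes by signal, at 5.39 ± 0.12 (SD, n = 6, percentile 59.7). Tdgf1, a Nodal coreceptor, was the 1 member below the median gene, at 4.01 ± 0.23 (SD, n = 6, percentile 23.3).

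**Figure D1:**
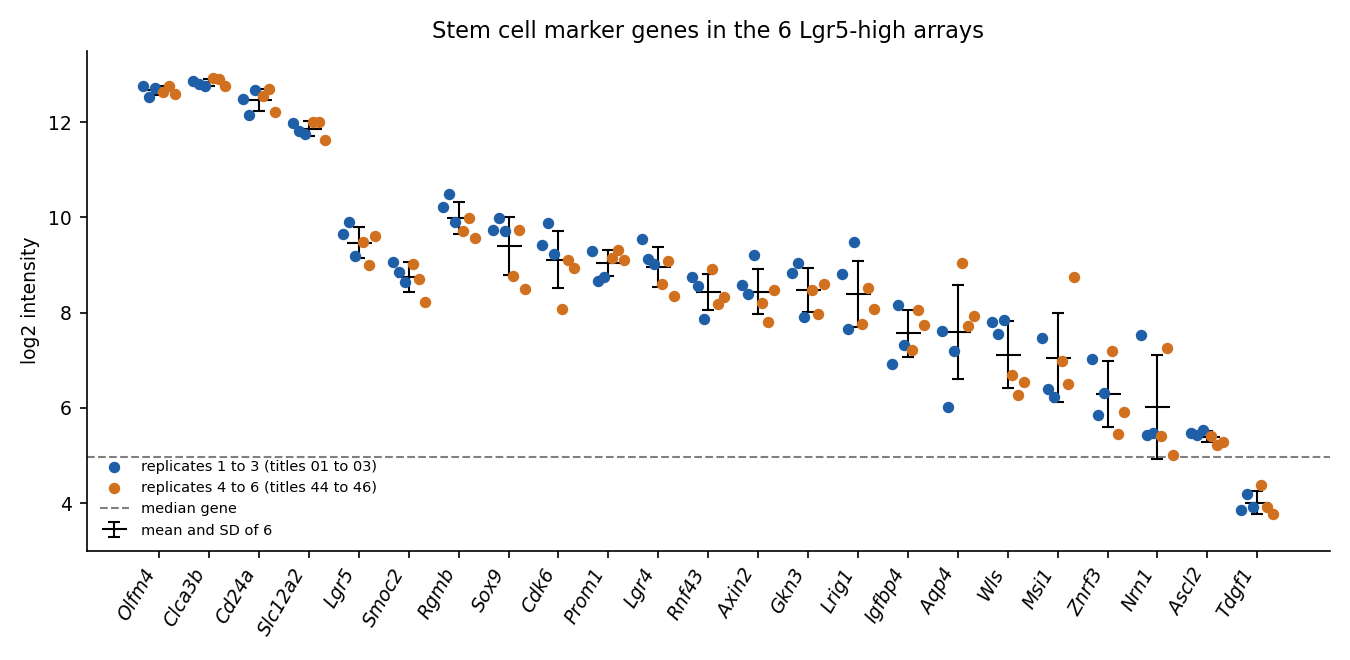
Log2 intensity (vertical axis) of 23 stem cell marker genes (horizontal axis) in each of the 6 Lgr5-high arrays. Points are arrays, coloured by title set, black bars are the mean and SD of 6 arrays, and the dashed line is the median gene at 4.97. Olfm4, Clca3b, Cd24a and Slc12a2 lie in a narrow band at the top, Nrn1 and Msi1 have arrays set apart, and Tdgf1 lies under the dashed line.

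Wnt pathway genes covered a wide range of signal. Of 21 listed receptors and effectors, 20 were measured, with a median percentile of 77.4, and 16 lay above the median gene. The R-spondin receptor Lgr4, a close relative of Lgr5, had a mean of 8.95 ± 0.42, the Wnt coreceptor Lrp6 one of 8.20 ± 0.64 and the nuclear effector Ctnnb1 one of 8.09 ± 0.52 (SD, n = 6 each). The receptor Fzd7 was at 5.76 ± 0.25 (SD, n = 6). Wnt3, the ligand that Paneth cells are known to supply, read between 4.07 and 4.60, at percentile 31.2.

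Among 16 measured Wnt targets and feedback genes, 13 lay above the median gene. Axin2, a feedback inhibitor and common readout of the pathway, had a mean of 8.44 ± 0.46, Rnf43 one of 8.43 ± 0.39, and Znrf3 one of 6.29 ± 0.69 (SD, n = 6 each). Znrf3 read 7.02, 5.86, 6.32, 7.19, 5.45 and 5.92. Replicates 1 and 4, from different title sets, were highest for both Znrf3 and Myc, the growth regulator, for which they read 9.28 and 8.94 against 7.58 to 8.42 in the other 4. The cyclins Ccnd2 and Ccnd1 had means of 9.66 ± 0.44 and 8.54 ± 0.24 (SD, n = 6 each). The letters CTTTGATC, bound by Tcf and Lef factors, were found on either strand in the promoters of 2 of 21 stem cell list members with a RefSeq promoter, Sp5 and Tnfrsf19, against 1.09% of genes. Sp5 read between 5.41 and 6.81.

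Genes of dividing cells were above the median gene throughout. All 22 measured S phase genes and all 23 measured G2/M genes lay above it, at median percentiles of 86.6 and 90.4. The replication clamp Pcna had a mean of 10.89 ± 0.38, the proliferation antigen Mki67 one of 9.68 ± 0.50 and the topoisomerase Top2a one of 9.73 ± 0.34 (SD, n = 6 each). The mean over the G2/M list was 8.32 in replicate 1, 7.42 in replicate 2 and between 7.73 and 7.95 in the other 4. For S phase it was lowest in replicate 6, at 7.03, against 7.25 to 7.60. The 7 cyclin-dependent kinase inhibitors, which hold back division, had a median level of 5.59, and Cdkn1a, the p53-induced member, ranged from 6.08 in replicate 6 to 8.32 in replicate 4.

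Notch signalling keeps crypt base cells from taking the secretory fate. All 16 listed Notch genes were measured and 14 lay above the median gene. The Notch target Hes1 read 8.63, 8.91, 8.75, 8.53, 7.76 and 8.94, with replicate 5 apart from the other 5. The receptor Notch1 had a mean of 7.13 ± 0.41 and the ligand Dll1 one of 6.11 ± 0.28 (SD, n = 6 each).

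Reserve and revival stem cell markers, genes proposed for slow-cycling or injury-induced stem cells, were near the middle of the arrays. The 9 measured members had a median level of 5.18, at percentile 55.0, and none lay in the top 5%. Hopx had a mean of 6.49 ± 0.33, Bmi1 one of 5.76 ± 0.27, Mex3a one of 5.76 ± 0.31 and the revival marker Clu one of 5.01 ± 0.18 (SD, n = 6 each). The 20 planar cell polarity genes, which set the orientation of cells in a sheet, had a median percentile of 54.0. Their highest signal was Ryk, a Wnt receptor, at 7.46 ± 0.20, and Cfap126, which encodes Flattop, was at 4.996 ± 0.349 (SD, n = 6 each).

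The highest signals belonged mostly to mitochondrially encoded genes and ribosomal proteins. After predicted and small RNA genes were left out, ND4 (13.27 ± 0.07, SD, n = 6) and ND3 (13.22 ± 0.23, SD, n = 6), subunits of respiratory complex I, ranked first and second. Tuba1c, Rps18, Rplp1, ND5, CYTB, Rpl41, the constitutive chaperone Hspa8, COX1, Rpl4, ND1, Clca3b, Rpl28 and COX3 made up the rest of the top 15. Clca3b was the only stem cell list member among them. Nuclear genes of oxidative phosphorylation followed the same level, with all 19 measured members above the median gene and a median percentile of 98.4. For the 17 measured ribosomal protein genes the median percentile was 99.5.

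**Figure D2:**
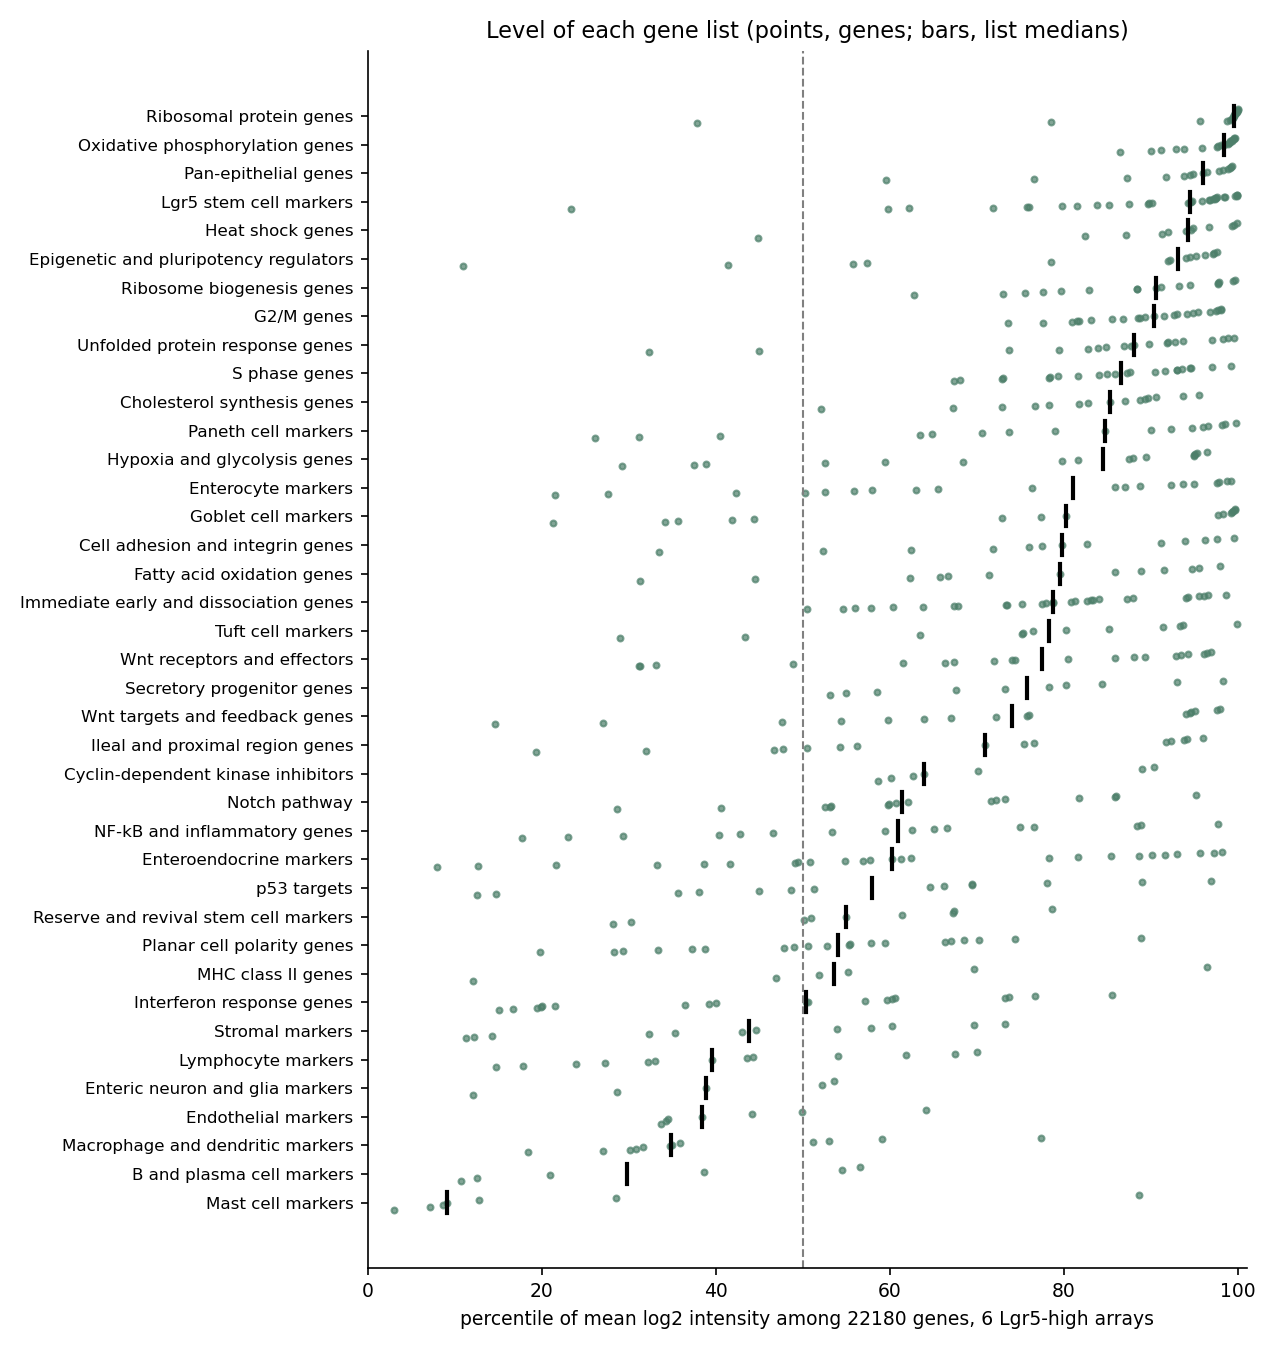
Percentile of the mean log2 intensity among 22180 genes (horizontal axis) for the measured genes of each list with at least 5 measured members (vertical axis), over the 6 Lgr5-high arrays. Points are genes, black bars are list medians and the dashed line is the median gene. Ribosomal and oxidative phosphorylation genes lie highest, the stem cell list has its median at percentile 94.5, and the lists of immune, stromal, endothelial and nerve cells lie to the left of the dashed line.

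Genes of differentiated epithelial cells had high signals beside the stem cell markers. In arrays of sorted pools, a larger share of such cells and more of the RNA in each cell cannot be told apart. Of 15 measured goblet cell markers, 7 lay in the top 5% and 5 in the top 1%. The mucin Muc2 read 10.39, 11.79, 11.48, 10.93, 11.66 and 11.00, the disulfide isomerase Agr2 had a mean of 11.69 ± 0.46, and the secreted peptides Spink4 and Tff3 had means of 11.86 ± 0.33 and 11.06 ± 0.36 (SD, n = 6 each). Replicate 1 had the lowest Muc2, in both of its probe sets. The other 8 goblet markers lay below the top 5%, among them Retnlb at 4.68 ± 0.87 (SD, n = 6).

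Paneth cell markers split in the same way, with 5 of 17 in the top 5%. The defensin Defa24 had a mean of 12.22 ± 0.38 and the antimicrobial ribonuclease Ang4 one of 10.003 ± 1.342 (SD, n = 6 each). Ang4 read between 9.88 and 10.96 in 5 arrays and 7.37 in replicate 6. Lysozyme Lyz1 read 9.33, 7.21, 9.22, 10.57, 11.59 and 10.54, and the metalloproteinase Mmp7 read 9.06, 5.57, 8.95, 9.03, 10.33 and 7.87. Replicate 2 was lowest and replicate 5 highest in both genes. A second Mmp7 probe set lay between 4.37 and 5.61 and had its highest value in replicate 5 but its lowest in replicate 3. Defensin and lysozyme genes have near-identical relatives, so which copy these probe sets measured is uncertain. This applies with most weight to Defa21, from 3.07 to 11.38, and Defa22, from 4.31 to 11.41, which were among the named genes of largest SD.

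Enteroendocrine markers were lower as a list, with 25 measured members at a median percentile of 60.3, but single hormone genes gave strong signals. The granin Chgb had a mean of 9.80 ± 0.61, the incretin gene Gip one of 9.29 ± 0.41 and somatostatin, Sst, one of 8.68 ± 0.90 (SD, n = 6 each). Sst was at 6.88 in replicate 3 and between 8.73 and 9.28 in the other 5. Ghrl, the gene for ghrelin, read 8.57, 5.64, 5.98, 8.36, 7.42 and 8.57, with replicates 2 and 3 lowest.

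Tuft cell markers had a median percentile of 78.3 over 12 measured genes, a list that includes Cd24a. Dclk1, the kinase used to mark tuft cells, was at 8.69 in replicate 3 and between 5.66 and 6.48 in the other 5. Among 20 measured enterocyte markers, 17 lay above the median gene. The fatty acid binding protein Fabp2 had a mean of 10.86 ± 0.46 and the disaccharidase Mgam one of 10.25 ± 0.40, while the brush border phosphatase Alpi was at 5.22 ± 0.59 (SD, n = 6 each). Fabp1 read 9.56, 5.68, 9.60, 8.54, 8.93 and 7.21, so replicate 2 lay lowest here too.

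**Figure D3:**
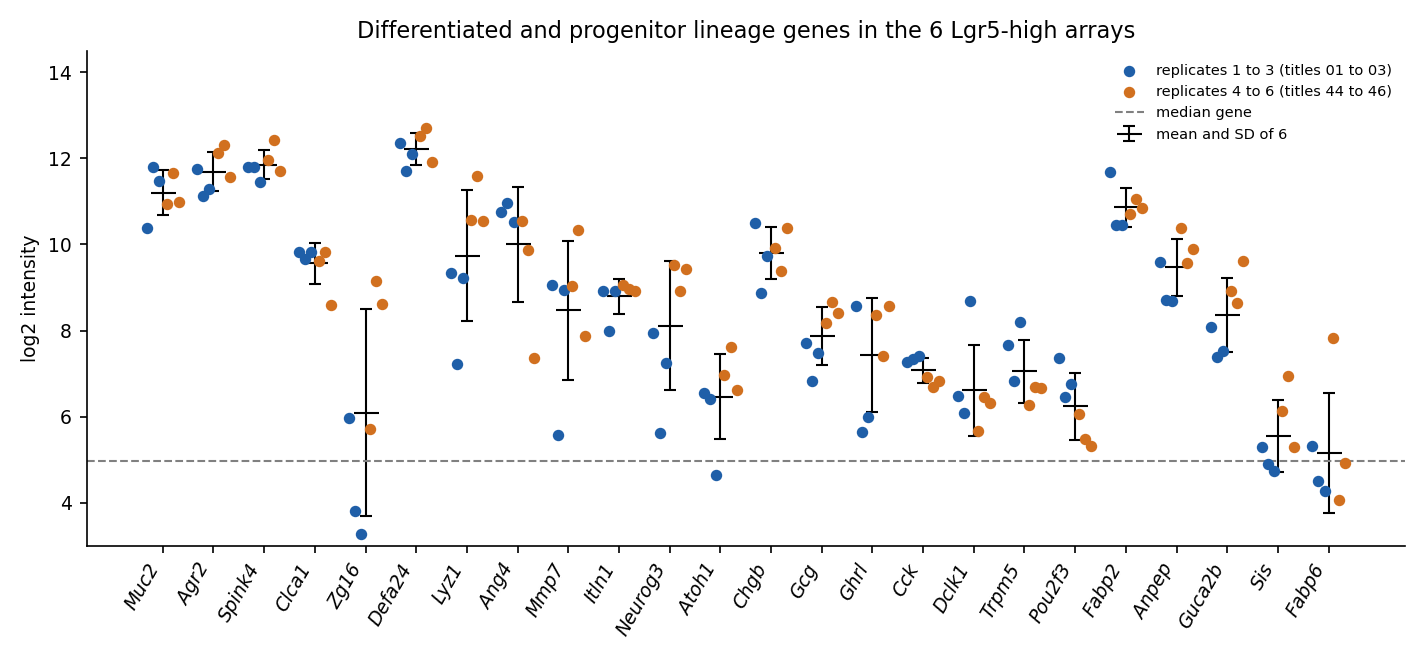
Log2 intensity (vertical axis) of 24 genes of goblet, Paneth, enteroendocrine, tuft and enterocyte lineages (horizontal axis) in the 6 Lgr5-high arrays. Points are arrays, coloured by title set, black bars are the mean and SD of 6 arrays, and the dashed line is the median gene. Muc2, Agr2, Spink4 and Defa24 are high in every array, while Zg16, Lyz1, Mmp7, Neurog3 and Ghrl spread widely.

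Markers of cells outside the epithelium had low signals. The 15 pan-epithelial genes had a median percentile of 95.9, with the adhesion proteins Epcam at 10.83 ± 0.12 and Cdh1 at 11.07 ± 0.12 (SD, n = 6 each). For 13 measured lymphocyte markers the median percentile was 39.6 and 4 lay above the median gene. Their mean per array ran from 4.46 in replicate 5 to 4.92 in replicate 2. The leukocyte phosphatase Ptprc was at 4.15 ± 0.30 and the T cell receptor component Cd3e at 4.73 ± 0.35 (SD, n = 6 each). Macrophage, stromal, endothelial, B and plasma cell and enteric nerve lists had median percentiles of 34.9, 43.8, 38.4, 29.8 and 38.8. Of these lists, all had their highest array mean in replicate 2. Mast cell markers had the lowest median percentile, 9.10, and the 1 member above the median gene was the receptor Kit, at 7.42 ± 0.31 (SD, n = 6).

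Most genes varied little over the 6 arrays. The median SD over genes was 0.29, and 745 genes (3.36%) had an SD above 1. Within titles 01 to 03 the median SD was 0.27, and within titles 44 to 46 it was 0.24. Small RNA genes made up 34 of the 100 genes of largest SD above the median level, against 205 of all 11090 genes above that level (1.85%).

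Replicate 2 held the most genes read low by 1 array alone. In replicate 2, 58 genes lay at least 2 below each of the other 5 arrays, of which 54 were neither predicted nor small RNA genes, against 0 to 10 genes in each of the others. One of them was Ndufa3, a complex I subunit, at 4.76 in replicate 2 and between 10.47 and 11.00 in the other 5. Others, chosen after their values were seen, were the cell cycle ubiquitin ligase subunit Anapc13 (6.72, against at least 10.54), the sialomucin Cd164 (7.89, against at least 10.62), the gamma-secretase subunit Psenen (6.53, against at least 9.39) and the junction protein Tjp1 (6.66, against at least 8.67). Genes at least 2 above all other arrays were more evenly spread, with 13, 32, 36, 16, 20 and 21 in replicates 1 to 6.

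**Figure D4:**
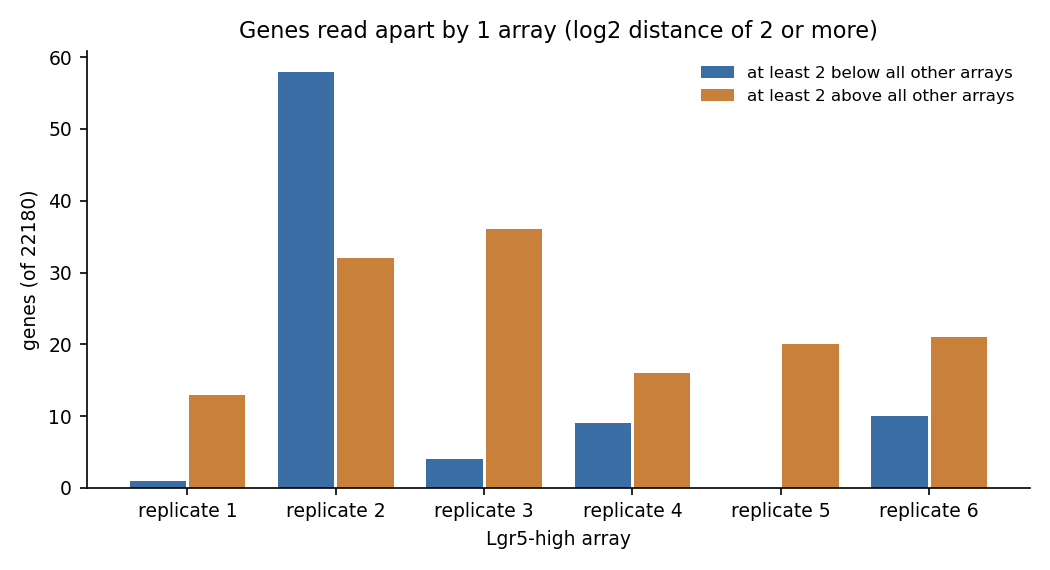
Number of genes (vertical axis) whose log2 intensity in 1 Lgr5-high array (horizontal axis) lies at least 2 below or at least 2 above each of the other 5 arrays. Blue bars count low genes, with 58 in replicate 2 and 0 to 10 elsewhere, and orange bars count high genes, from 13 to 36.

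Xist had the largest SD of the named genes, 3.57. The Y-linked genes read low where Xist read high. Eif2s3y read 3.58 and 3.66 in replicates 1 and 6 and between 6.42 and 8.21 in the other 4, and Kdm5d and Uty were also at their lowest in replicate 1. Replicate 2 had the lowest values of Eif2s3y, Kdm5d and Uty among the 4 arrays with low Xist, at 6.42, 3.99 and 4.33. Rabggtb, from 2.86 to 9.76, and the histone genes H2ac21 and H2bc12 also had large SDs, with their high arrays in both title sets. Other probe sets of some of these genes read differently. For Tlcd1 and Rgs2 the other set had an SD of 0.19 and 0.83. Of 3 other Fabp5 sets, 1 repeated the pattern (SD 2.28, with 3.53 in replicate 2), while the remaining ones had SDs of 0.72 and 1.32. The other sets of Zfp507 lay at means of 3.64 and 6.03 with SDs of at most 0.25, and that of H2ac21 at a mean of 3.41, a dim signal.

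The numbers in the titles fall into a low set, 01 to 03, and a high set, 44 to 46. The labels do not say what the numbers mark, and they do not tie arrays to animals. The p-values therefore cover the variation among these 6 arrays, part of which may be technical. With 3 arrays on each side, limma called 0 of 22180 genes at an adjusted p of 0.05 (0% of those tested), and the smallest adjusted p was 0.836. At an unadjusted p of 0.05, 911 genes were counted (4.11%), of which 344 were higher (1.55%) and 567 lower (2.56%) in titles 44 to 46. The title sets did not overlap in 1950 genes (8.79%), of which 895 were higher (4.04%) and 1055 lower (4.76%). Simulated data of the same size were drawn with independent normal noise for each gene. In them the test found 17.5% of 80 genes given a log2 difference of 1, 65.5% of 55 given 2 and 93.8% of 65 given 4. The simulation held no effect shared by the genes of an array, so these shares may not hold for the real arrays. The median difference over all genes was -0.01. What follows gives values of genes that did not pass, written as titles 44 to 46 minus 01 to 03.

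The 4 stem cell markers had small differences between the title sets. Lgr5 differed by -0.21 (SE 0.26), or between -0.41 without replicate 3 and -0.03 without replicate 5. Olfm4 differed by -0.01 (SE 0.16), Smoc2 by -0.21 (SE 0.25) and Slc12a2 by 0.04 (SE 0.18). The direction of the Olfm4, Smoc2 and Slc12a2 differences turned when single arrays were left out, and that of Olfm4 also after a second quantile normalisation. Of the 32 list members, 1 was higher and 2 were lower at an unadjusted p of 0.05 in limma, against 1.55% and 2.56% of all genes. Without overlap, 2 were higher and 2 lower, against 4.04% and 4.76% of all genes, and the median difference was -0.14. The 3 at that unadjusted p were the water channel Aqp4 (1.28, SE 0.51), Sox9 (-0.81, SE 0.33) and the cell cycle kinase Cdk6 (-0.81, SE 0.32). Aqp4 read 7.62, 6.02, 7.20, 9.04, 7.72 and 7.92, and its difference was 0.82 without replicate 2. Cdk6 read 9.43, 9.88, 9.23, 8.08, 9.10 and 8.94, and its difference was -0.49 without replicate 4.

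Both Wnt genes among the smallest p-values were lower in titles 44 to 46. Wls, the carrier that takes Wnt ligands to the cell surface, read 7.81, 7.54 and 7.85 in titles 01 to 03 and 6.70, 6.27 and 6.53 in titles 44 to 46. The sets did not overlap, and the difference was -1.24 (SE 0.19, limma adjusted p = 0.970). Tcf7l2, the nuclear partner of beta-catenin in crypts, read 8.64, 8.94 and 8.95 against 7.96, 7.91 and 7.85, with no overlap. It differed by -0.94 (SE 0.17). Of the 20 measured Wnt receptors and effectors, these 2 were lower and 0 higher at an unadjusted p of 0.05 in limma, against 2.56% and 1.55% of all genes. A negative difference was found in 14 of the 20, against 51.6% of all genes, with a list median of -0.11. Among the 16 targets and feedback genes 0 were counted in either direction by limma at an unadjusted p of 0.05, and Axin2 differed by -0.56 (SE 0.28), or -0.32 without replicate 3.

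The other genes with the smallest p-values had no shared list. Zswim3 read 7.10, 7.05 and 6.93 against 5.27, 5.51 and 4.82, a difference of -1.82 (SE 0.21), and had the smallest adjusted p, 0.836. Zfp511 differed by -1.84 (SE 0.24), the endoplasmic reticulum protein Erlin2 by -1.31 (SE 0.18), Nrep by -1.24 (SE 0.18) and the acyltransferase Acnat1 by -2.03 (SE 0.32). Rnf125, a ubiquitin ligase, read 8.62, 9.84 and 8.27 against 4.96, 6.60 and 5.43, a difference of -3.25 (SE 0.54). The glycolipid transfer protein Gltp, the G protein subunit Gnai3, the cap-binding protein Ncbp1 and Tmem41a differed by between -1.25 and -1.14. Only Gas2l3 (1.01, SE 0.16) and Dop1a (1.08, SE 0.17) of the 15 genes were higher in titles 44 to 46. For Aimp1 the difference was -1.55 (SE 0.26) in the chosen probe set and -0.41 in another.

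**Figure D5:**
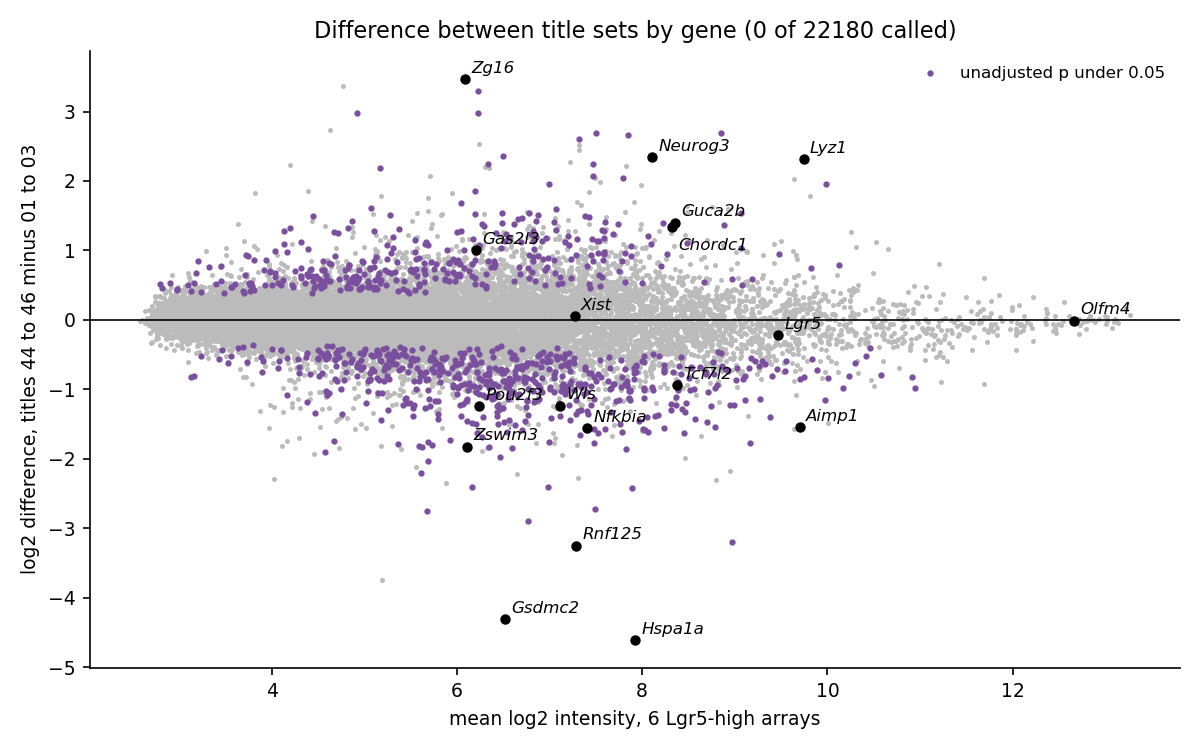
Difference in log2 intensity between titles 44 to 46 and 01 to 03 (vertical axis) against mean log2 intensity over the 6 Lgr5-high arrays (horizontal axis) for 22180 genes. Grey points are genes, purple points the 911 genes at an unadjusted p of 0.05 and black points named genes. None passed the adjusted threshold, Lgr5 and Olfm4 lie near 0, and Hspa1a and Gsdmc2 lie at the bottom.

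Several secretory genes read higher in titles 44 to 46. Neurog3, the transcription factor that starts the enteroendocrine fate, read 7.95, 5.63 and 7.24 in titles 01 to 03 and 9.52, 8.91 and 9.42 in titles 44 to 46. All 3 later-numbered arrays lay above all 3 others, and the difference was 2.35 (SE 0.57). Atoh1, which starts the secretory fate as a whole, read 6.54, 6.40 and 4.65 against 6.97, 7.61 and 6.61, a difference of 1.20 (SE 0.54), or 0.59 without replicate 3. Of the 10 secretory progenitor genes, 1 was higher and 1 lower at an unadjusted p of 0.05 in limma, against 1.55% and 2.56% of all genes. The lower gene was the goblet and Paneth factor Spdef (-0.50, SE 0.19), and the list median was 0.10.

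Among mature secretory genes, Lyz1 differed by 2.31 (SE 0.61), with no overlap. The goblet lectin Zg16 read 5.97, 3.81 and 3.28 against 5.71, 9.15 and 8.61, a difference of 3.47 (SE 1.05) in which replicate 4 overlapped the low set. The goblet peptide Retnlb differed by 1.27 (SE 0.39). Of 15 goblet markers, Zg16 and Retnlb were higher and Spdef lower at an unadjusted p of 0.05 in limma, against 1.55% and 2.56% of all genes. The mean over the goblet list was 7.77, 7.56 and 7.49 in titles 01 to 03 and 7.79, 8.51 and 7.85 in titles 44 to 46, and the list median difference was 0.35. For the 17 Paneth markers 1 was higher and 0 lower, against the same shares of all genes, with a median of -0.04.

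Of 25 enteroendocrine markers, 2 were higher and 1 lower at an unadjusted p of 0.05 in limma, against 1.55% and 2.56% of all genes, with a median of 0.08. Gcg, the proglucagon gene, read 7.72, 6.83 and 7.48 against 8.18, 8.65 and 8.41 and differed by 1.07 (SE 0.27). Cck, another peptide hormone, read 7.26, 7.33 and 7.40 against 6.92, 6.70 and 6.82 and differed by -0.52 (SE 0.16). Both had no overlap, in opposite directions.

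Among tuft cell markers, 5 of 12 had a positive and 7 a negative difference. Pou2f3, the transcription factor that tuft cells need, read 7.37, 6.46 and 6.76 against 6.07, 5.47 and 5.31, a difference of -1.24 (SE 0.31). Trpm5, the tuft cell cation channel, read 7.67, 6.84 and 8.20 against 6.26, 6.68 and 6.66, a difference of -1.03 (SE 0.35). These were the 2 of 12 tuft markers lower at an unadjusted p of 0.05 in limma, with 0 higher, against 2.56% and 1.55% of all genes. Without overlap, 3 were lower and 0 higher, against 4.76% and 4.04% of all genes, and the list median was -0.16. The mean over the tuft list was 7.23, 6.82 and 7.31 against 7.06, 6.68 and 6.76, which overlapped.

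Enterocyte genes went both ways. The peptidase Anpep read 9.59, 8.72 and 8.70 against 10.38, 9.58 and 9.88, a difference of 0.95 (SE 0.32). Sucrase-isomaltase, Sis, differed by 1.15 (SE 0.42), or 0.73 without replicate 5, and adenosine deaminase, Ada, by -1.11 (SE 0.33). These 2 higher and 1 lower were all of the 20 enterocyte markers at an unadjusted p of 0.05 in limma, against 1.55% and 2.56% of all genes. Without overlap, 0 were higher and 3 lower, against 4.04% and 4.76% of all genes, and the list median was 0.14. Guca2b, the gene of the gut hormone uroguanylin, is not on that list. It read 8.08, 7.38 and 7.51 against 8.93, 8.63 and 9.61, a difference of 1.40 (SE 0.31) with no overlap. Whether the share of differentiated cells in the sorted pools had a part in these differences was not tested.

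Gsdmc2, a gasdermin of the gut epithelium, read 7.07, 9.40 and 9.57 in titles 01 to 03 and 6.35, 3.04 and 3.72 in titles 44 to 46, a difference of -4.31 (SE 1.003). Of 13 measured genes of fatty acid oxidation, 11 had a negative difference, against 51.6% of all genes and 55.1% of genes above the median level, and their median was -0.26. At an unadjusted p of 0.05 in limma, 3 were lower and 0 higher, against 2.56% and 1.55% of all genes, and none passed the adjusted threshold. The dehydrogenase Acadl differed by -1.44 (SE 0.31), the peroxisomal enzyme Ehhadh by -1.80 (SE 0.49) and the nuclear receptor Ppard by -0.54 (SE 0.17).

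Immediate early genes respond within minutes to growth factors and to the handling of tissue. A mixed list of immediate early and dissociation genes was lower in titles 44 to 46 in 24 of 29 measured members, against 51.6% of all genes. Their median difference was -0.55, against -0.01 for all genes. All 29 lay above the median gene, and among genes above it 55.1% had a negative difference, with a median of -0.04. Other lists also leaned lower, such as nuclear genes of oxidative phosphorylation, with 17 of 19 members negative and a median of -0.14. The goblet list leaned higher, with 11 of 15 members positive. The leans of lists given in this report come from the deposited normalisation alone. After a second quantile normalisation, 494 genes were higher and 496 lower at an unadjusted p of 0.05 in limma. Before it these were 344 and 567. The leans of single lists were not counted again. At an unadjusted p of 0.05 in limma, 4 of the 29 were lower and 0 higher, against 2.56% lower and 1.55% higher among all genes. Fos read 6.21, 7.62 and 7.06 against 5.98, 5.91 and 5.82, a difference of -1.06 (SE 0.35) with no overlap. Egr1 read 7.10, 8.37 and 8.51 against 7.60, 6.05 and 6.44 and overlapped, with a difference of -1.30 (SE 0.52). The phosphatases Dusp1 and Dusp5, which switch off MAP kinases, differed by -0.85 (SE 0.31) and -0.60 (SE 0.22), the second by -0.39 without replicate 3.

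The mean over the list was 6.78, 7.10 and 7.13 in titles 01 to 03 and 6.64, 6.26 and 6.70 in titles 44 to 46, with no overlap. Jun, a partner of Fos, read 10.03, 7.81, 9.22, 7.35, 7.86 and 9.77, which did not follow the title sets. Nfkbia, the inhibitor of NF-kB, read 8.03, 9.28 and 7.24 against 6.87, 7.23 and 5.77, a difference of -1.56 (SE 0.59), or -1.01 without replicate 2. The letters TGACGT, a part of the cyclic AMP response element, were searched on both strands in RefSeq promoters of 300 bases. The windows ran from 250 before to 50 after a start, for any start of a gene, in GRCm38.p6. These letters were present in 9 of the 25 members of the immediate early and dissociation list with a promoter, against 8.37% of 27025 genes.

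Heat shock genes as a list had little difference, but Hspa1a had the largest of the named genes. Hspa1a, the stress-induced chaperone HSP70, read 9.68, 10.57 and 10.44 in titles 01 to 03 and 3.62, 4.10 and 9.15 in titles 44 to 46. Replicates 4 and 5 were at the level of genes below the median, replicate 6 was close to titles 01 to 03, and the difference was -4.61 (SE 1.384). Its neighbour Hspa1b, whose protein is nearly the same, read 8.78, 10.11 and 9.33 against 9.08, 7.50 and 9.41, so replicate 4 did not read low and replicate 5 read lowest. The Hspa1b difference was -0.74 (SE 0.56), or -0.16 without replicate 5 and -0.39 without replicate 2. The genes are near-identical copies, so which copy each probe set measured is uncertain.

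The promoters of the pair are shown because they differ so little, with Hspa1a at chr17:34972107-34972406 and Hspa1b at chr17:34959189-34959488, both on the minus strand. These are the RefSeq windows of GRCm38.p6, 5′ to 3′. Capitals mark the heat shock element GAANNTTC, the inverted repeat bound by heat shock factors, which reads the same on both strands.
Hspa1a: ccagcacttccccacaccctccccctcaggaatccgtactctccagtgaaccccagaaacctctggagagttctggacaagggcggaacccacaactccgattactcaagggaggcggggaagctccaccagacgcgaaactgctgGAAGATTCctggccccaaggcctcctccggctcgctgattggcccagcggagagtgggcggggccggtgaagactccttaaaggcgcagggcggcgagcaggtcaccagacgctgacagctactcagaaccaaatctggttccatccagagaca
Hspa1b: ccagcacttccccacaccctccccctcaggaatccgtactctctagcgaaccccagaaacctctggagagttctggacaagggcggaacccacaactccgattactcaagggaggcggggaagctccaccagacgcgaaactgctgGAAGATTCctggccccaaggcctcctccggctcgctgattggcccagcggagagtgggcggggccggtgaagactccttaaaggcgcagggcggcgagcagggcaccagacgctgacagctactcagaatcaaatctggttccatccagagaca

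The windows agree at 296 of 300 positions (98.7%). Counted from 1 at the 5′ end with the Hspa1a base first, the substitutions are C44T, T47C, T249G and C276T, none of them inside the element.

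Chordc1, a cochaperone of HSP90, went the other way from Hspa1a. It read 8.01, 6.59 and 8.37 against 9.53, 8.87 and 8.57, a difference of 1.33 (SE 0.49) with no overlap, or 0.80 without replicate 2. Its promoter, at chr9:18292017-18292316 on the plus strand, is shown because it holds 3 overlapping copies of the longer element GAANNTTCNNGAA, counted on both strands and marked in capitals.
Chordc1: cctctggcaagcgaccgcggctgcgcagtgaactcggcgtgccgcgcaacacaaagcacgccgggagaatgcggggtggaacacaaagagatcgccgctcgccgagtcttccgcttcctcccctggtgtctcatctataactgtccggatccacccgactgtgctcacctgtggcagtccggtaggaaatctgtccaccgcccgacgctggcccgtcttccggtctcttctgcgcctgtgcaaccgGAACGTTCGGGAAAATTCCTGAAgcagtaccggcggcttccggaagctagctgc

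The longer element contains the shorter one. GAANNTTC was present in 8 of the 10 heat shock genes with a promoter, against 9.04% of 27025 genes, and GAANNTTCNNGAA in 4 of the 10, against 0.662%. The 8 include both Hspa1a and Hspa1b, whose windows are nearly the same sequence but are counted separately. Hspd1 and Hspe1 are in both counts. Whether the windows of other members share bases was not tested, so an element may be counted more than once. Of the 12 measured heat shock genes, 1 was higher and 1 lower at an unadjusted p of 0.05 in limma, against 1.55% and 2.56% of all genes. Their median difference was -0.03. Hspa8, the constitutive member, lay between 12.92 and 13.14 in all 6 arrays. Hspa1a and Chordc1, which both hold GAANNTTC, had differences of opposite sign, and neither passed the adjusted threshold. The part of the element in these differences was not tested.

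The Flattop arrays also fall into low titles, 04 and 08, and high titles, 38 and 42, and the title set difference was compared between the groups as an interaction in limma over all 10 arrays. It passed for 2 of 22180 genes (0.00902%), and 1639 genes (7.39%) were counted at an unadjusted p of 0.05. Fasl, the death ligand of cytotoxic lymphocytes, gave -2.82 (SE 0.24, adjusted p = 0.0224), and Stat4, a transcription factor of T and natural killer cells, gave -4.29 (SE 0.41, adjusted p = 0.0325). In the Lgr5-high arrays both were flat and low, with Fasl between 4.001 and 4.30 and Stat4 between 3.29 and 3.74. Within the Flattop arrays alone, 15 genes (0.0676%) passed between the high and the low titles. There Fasl read 5.23, 5.26, 8.29 and 8.02 and Stat4 read 3.71, 4.76, 8.53 and 8.52, so for both genes the title sets lay apart in the Flattop arrays. All 13 measured lymphocyte markers also had higher means in the high than in the low Flattop titles, with a median difference of 1.78, against 0.07 for all genes in the Flattop arrays and -0.06 for the list in the Lgr5-high arrays. In the Lgr5-high arrays the list lay low, at a median level of 4.59 with 4 of 13 above the median gene. Detection calls were not used for these low signals. Of the 13, 10 had a negative difference in the Lgr5-high arrays, against 51.6% of all genes. There 3 were lower and 0 higher at an unadjusted p of 0.05 in limma, against 2.56% and 1.55% of all genes. Without overlap, 5 were lower and 0 higher, against 4.76% and 4.04% of all genes. The mean over the list was 7.96, 8.51, 10.24 and 9.52 in the 4 Flattop arrays, with Cd3e at 8.64, 9.15, 11.63 and 10.70 and Ptprc at 7.30, 8.98, 10.17 and 9.80. The part of these cells in the interaction was not tested.

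Both calls were lost when any 1 of the Lgr5-high arrays was left out (adjusted p = 0.0708 to 0.136 for Fasl and 0.114 to 0.169 for Stat4). The Fasl call was also lost without Flattop replicate 1 (adjusted p = 0.0915), 2 (0.0515) or 3 (0.0560), and the Stat4 call without Flattop replicate 3 (0.0657). For Wls the interaction was -2.79 (SE 0.32, adjusted p = 0.0670), and it passed without Flattop replicate 4 (adjusted p = 0.0459). Wls was lower in titles 44 to 46 of the Lgr5-high arrays, as above, and in the Flattop arrays read 7.23 and 7.82 in the low titles and 9.14 and 9.02 in the high titles. What the title numbers stand for in either group was not tested.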

How the data were processed

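The authors deposited log2 intensities of Affymetrix MoGene-2_0-st probe sets, made with RMA in oligo 1.38.0, per the submitters' processing notes, which corrects background, normalises arrays to each other and summarises probes. Normalisation forces the arrays to a like distribution, so a shift of all genes could not be seen. Scanner files were not used here. Of 41345 probe sets, 23521 had 1 gene symbol in the platform annotation, 1814 had several and 16010 were not listed and stay unnamed here. Entrez numbers matched RefSeq genes (GRCm38.p6) for 23328. The 22180 genes each take the probe set whose mean over all 10 arrays is highest (1082 had several), with no filter on dim probe sets.

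Means, SDs, ranks and percentiles over the 6 Lgr5-high arrays were computed from the deposited values and carry no test. limma 3.58.1 in R 4.3.3 (lmFit, eBayes, two-sided) compared the title sets on these 6 arrays with no covariate, and tested the interaction with group on all 10, with Benjamini-Hochberg adjustment over all genes at 0.05. The method was tested on simulated data. Named genes were the 4 markers, up to 4 members of each list, the 15 smallest p-values, the 15 highest means, the 15 largest SDs above the median level, sex-linked genes, Cfap126 and the smallest interaction p-values, leaving out predicted and small RNA genes, olfactory and vomeronasal receptors, and immunoglobulin and T cell receptor segments. Further list members, named to show the range of a list, were chosen after their values were seen. Members and gene lists were chosen with earlier results of these data known. The number of arrays limits the precision. Plots were drawn with matplotlib 3.10.9.

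Alternatives were a second quantile normalisation, centring on the array median, a filter at the 40th percentile, a trended and robust prior, array weights, the spread of all 10 arrays, Xist as a covariate, other probe set rules, an adjusted p of 0.1, a 2-fold minimum and each array left out.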

Additional observations from a re-analysis of the deposited data

Results flagged for a closer look

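In 214 genes and lists examined over the 6 Lgr5-high arrays, 18 had 1 array whose gap to the nearest other array exceeded 0.625 of the whole range. Chance flags about 1 in 20 groups chosen without regard to their values. Some of the genes here were chosen for a large SD or after their values were seen, so that rate is no yardstick for the 18. The single genes were Kcnq1 in replicate 4 (10.09), Hes1 in replicate 5 (7.76), Clca1 in replicate 6 (8.60), Ang4 in replicate 6 (7.37), Itln1 in replicate 2 (7.99), Sst in replicate 3 (6.88), Dclk1 in replicate 3 (8.69), Krt8 in replicate 6 (9.503), Pecam1 in replicate 2 (5.07), Ndufa3 in replicate 2 (4.76), Fabp6 in replicate 4 (7.83) and ND3 in replicate 1 (12.78).

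For the means over lists, replicate 1 was high in stem cell markers (8.62) and low in macrophage and dendritic markers (4.33), replicate 5 was high in goblet cell markers (8.51), and replicate 2 was high in B and plasma cell (4.64), endothelial (5.08) and enteric neuron and glia markers (4.68). The title set difference of Lgr5-high minus that of Flattop stood out by the interaction test in Fasl (-2.82) and Stat4 (-4.29), in both of which the Lgr5-high arrays were flat.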

How the results depend on the processing

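limma called 0 genes between the title sets under all 17 alternatives. The smallest adjusted p ranged from 0.0521, without replicate 6, to 1, without replicate 4, and the genes at an unadjusted p of 0.05 split into 344 higher and 567 lower, or 494 and 496 after a second quantile normalisation. The interaction count of 2 became 4 with a trended and robust prior and ranged from 0 to 38 with single arrays left out (0 without any 1 Lgr5-high array, 38 without Flattop replicate 4). The median percentile of stem cell markers moved from 94.5 to 90.9 when genes under the 40th percentile were left out, since fewer dim genes were ranked. The Lgr5 difference was -0.11 after a second quantile normalisation and -0.10 with array weights. The Olfm4 difference turned to 0.031 after a second quantile normalisation. With single arrays left out it ranged from -0.079 to 0.032 (above 0 without replicate 1, 3, 4 or 6), that of Smoc2 from -0.399 to 0.005 (above 0 without replicate 6), and that of Slc12a2 from -0.029 to 0.162 (below 0 without replicate 3, 4 or 5). The cause was not tested. No paired analysis was possible because the title sets share no replicate number. The median SD stayed between 0.27 and 0.29.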

Other observations

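MHC class II genes, which present antigen and are known to be active in a part of the intestinal stem cells, varied over the arrays. H2-Ab1 read 9.36, 6.51, 8.51, 10.21, 9.47 and 9.504, with replicate 2 lowest and replicate 4 highest, and its title set difference was 1.60, or 0.79 without replicate 2. The mean over the 6 measured class II genes was 5.89, 5.10, 5.15, 6.08, 5.68 and 5.58. Transcription factors of gut position gave clear signals, with Hnf4a at 8.96 ± 0.22, Gata6 at 8.78 ± 0.50, Cdx2 at 8.27 ± 0.58 and Gata4, a factor of the upper small intestine, at 7.90 ± 0.24 (SD, n = 6 each). Fabp6, the ileal bile acid binding protein, was at 7.83 in replicate 4 and between 4.06 and 5.32 in the other 5.

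Among regulators of chromatin, Dnmt1, the maintenance DNA methyltransferase, had a mean of 9.28 ± 0.30, and the Polycomb subunit Ezh2 one of 8.34 ± 0.47 (SD, n = 6 each). The deacetylase Hdac1 read 8.94, 7.33, 10.16, 9.91, 9.65 and 7.21, with replicates 2 and 6 lowest. The 15 measured cholesterol synthesis genes all lay above the median gene, with a median percentile of 85.3.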
